A study of Mus musculus with 6 samples.

Results

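RGS genes encode regulators of G-protein signalling. The set described here held 10 genes, chosen by symbol from the 32531 gene rows of the count files: Rgs2, Rgs4, Rgs7, Rgs8, Rgs9, Rgs10, Rgs14, Rgs16, Rgs17 and Rgs7bp. All 10 passed the filter on low counts that left 16898 genes for testing. The libraries came from the thalamus of adult control mice, given no treatment, of the line Cbln1-TRAP NIDA030, which carries Rpl10a, a protein of the large ribosomal subunit, fused to the green fluorescent protein EGFP. In translating ribosome affinity purification (TRAP), tagged ribosomes are pulled out of a tissue homogenate with antibodies against EGFP. The 6 RNA-seq libraries were 3 immunopurified (IP) and 3 Input libraries, numbered 1 to 3 in each group, and every mouse was of the same line, so the Input libraries carried the transgene too. The labels give ribosome-bound RNA as the molecule of both groups, name only the thalamus as the tissue (the deposited files carry the name of 1 of its nuclei, the parafascicular), and do not say which cells carried the tag, how many animals were used or whether they were pooled.

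A ligand-bound receptor loads the alpha subunit of a heterotrimeric G protein with GTP, and the signal lasts until the GTP is hydrolysed. An RGS domain binds the active alpha subunit and speeds that hydrolysis, so RGS proteins set how quickly receptor signals end. The family is divided by sequence into a group of small proteins (R4, here Rgs2, Rgs4, Rgs8 and Rgs16), a group that works as a dimer with the beta subunit Gnb5 (R7, here Rgs7 and Rgs9), a group that includes a regulator of the alpha subunit Gz (RZ, here Rgs17) and a group with Rgs10 and the scaffold Rgs14 (R12). Rgs7bp has no RGS domain and anchors R7 dimers at the plasma membrane.

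Assigned counts ran from 45256700 to 57385828 in IP and from 23929070 to 47741219 in Input. The ribosomal RNA precursor Rn45s took 11.2 ± 2.86% of them in IP and 5.33 ± 0.103% in Input (mean ± SD of 3 libraries). Levels are given as CPM, counts relative to library sizes scaled by the trimmed mean of M values (TMM). Cbln1, for which the line is named, reached 1361, 1428 and 1496 CPM in IP, against 68.9, 83.2 and 87.2 CPM in Input. All 12 pan-neuronal markers on a list rose in IP (median log2 fold change 1.04, from 0.47 to 1.36). All 10 astrocyte markers (median -3.13) and all 10 oligodendrocyte markers (median -3.46) fell, as did 8 of 10 markers of inhibitory and reticular nucleus neurons (median -2.82), all 10 habenula markers (median -2.02) and 8 of 10 endothelial markers (median -4.14, with Cldn5 and Cdh5 at 0 in all IP libraries). These values compare RNA pulled down with tagged ribosomes with Input RNA, and do not show a change in cell number or in RNA per cell. How much RNA of cells without the tag remained in IP was not tested.

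Of the 10 RGS genes, 5 passed the test with higher levels in IP and 2 with lower ones, and 3 did not pass it. Rgs2, Rgs4, Rgs8, Rgs16 and Rgs7bp rose, and Rgs9 and Rgs10 fell, while Rgs7, Rgs14 and Rgs17 did not pass the test. Of those that rose, only Rgs2 exceeded the median log2 fold change of the 12 pan-neuronal markers (1.04). Rgs7bp (0.87), Rgs4 (0.64) and Rgs16 (0.60) lay below that median, and Rgs8 (0.44) below the lowest of these markers (0.47). Calls rest on edgeR's quasi-likelihood F-test over all 16898 genes with Benjamini-Hochberg adjustment at a threshold of 0.05. By that test 23.3% of all genes were called higher and 24.3% lower. The share of higher genes among all calls was 48.9% under TMM scaling, 36.7% under upper-quartile scaling and 31.9% under library totals, and the median log2 fold change of all genes was -0.07, -0.25 and -0.31 in the same order. The median of the RGS genes was 0.39 under TMM scaling, 0.21 under upper-quartile scaling and 0.15 under library totals, where 3 of them were called higher. Every IP library lay above every Input library for 5 RGS genes and below for 2, where 27.9% and 33.7% of all genes did so. P-values set the difference between IP and Input against the spread between these libraries, which edgeR moderates with information from all genes. Nothing in the labels says that the replicates came from separate animals.

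**Figure D1:**
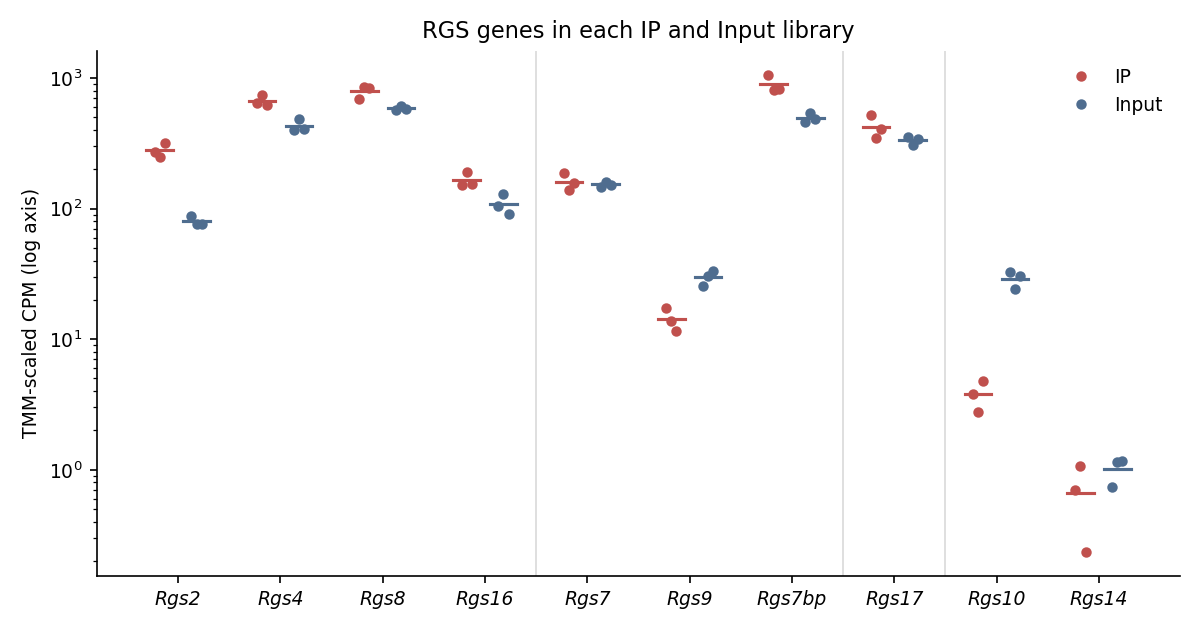
TMM-scaled CPM on a log axis for each RGS gene in the 3 IP libraries (left of each pair) and the 3 Input libraries (right of each pair). Points are libraries, short lines are group means, and grey lines part the R4 group, the R7 group with Rgs7bp, Rgs17, and the R12 group. Rgs2 stands clear of Input (279.6 against 80.0 CPM on average) and Rgs10 lies far below it (3.81 against 29.0 CPM).

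All 4 R4 genes of the set rose under TMM scaling, Rgs2 the most, and with library totals Rgs8 and Rgs16 were not called. Rgs3 and Rgs5, R4 genes outside the set, fell. Promoter windows of 3 of them, and of Rgs10, the gene of the set that fell most, are shown to set the DNA at the start of these genes side by side. Each window runs 5′ to 3′ on the gene's strand from 250 bases before to 50 bases after the RefSeq start (GRCm38.p6, the mm10 assembly): chr1:144004100-144004399 (minus) for Rgs2, chr1:169747593-169747892 (minus) for Rgs4, chr1:153740103-153740402 (plus) for Rgs16 and chr7:128418123-128418422 (minus) for Rgs10. Capitals mark TGACG, the shorter form of the cAMP response element, CCAAT, and TATAAA, each read on both strands.
Rgs2: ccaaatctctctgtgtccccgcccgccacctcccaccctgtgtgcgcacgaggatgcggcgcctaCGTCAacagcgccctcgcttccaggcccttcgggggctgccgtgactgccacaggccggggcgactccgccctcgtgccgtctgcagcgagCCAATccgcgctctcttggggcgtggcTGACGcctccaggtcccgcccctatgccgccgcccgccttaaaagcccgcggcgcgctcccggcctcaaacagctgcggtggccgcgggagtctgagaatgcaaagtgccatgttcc
Rgs4: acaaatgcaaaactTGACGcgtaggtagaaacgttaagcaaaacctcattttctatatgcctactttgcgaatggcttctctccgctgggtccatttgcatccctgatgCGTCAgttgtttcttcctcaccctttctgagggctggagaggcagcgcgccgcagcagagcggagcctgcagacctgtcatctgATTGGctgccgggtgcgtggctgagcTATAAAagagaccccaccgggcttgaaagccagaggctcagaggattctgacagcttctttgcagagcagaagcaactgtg
Rgs16: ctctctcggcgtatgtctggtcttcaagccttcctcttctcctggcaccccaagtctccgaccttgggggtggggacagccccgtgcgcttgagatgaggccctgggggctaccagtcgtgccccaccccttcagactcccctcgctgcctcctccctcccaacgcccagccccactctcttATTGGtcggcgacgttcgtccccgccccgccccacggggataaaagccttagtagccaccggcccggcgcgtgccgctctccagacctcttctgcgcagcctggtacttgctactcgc
Rgs10: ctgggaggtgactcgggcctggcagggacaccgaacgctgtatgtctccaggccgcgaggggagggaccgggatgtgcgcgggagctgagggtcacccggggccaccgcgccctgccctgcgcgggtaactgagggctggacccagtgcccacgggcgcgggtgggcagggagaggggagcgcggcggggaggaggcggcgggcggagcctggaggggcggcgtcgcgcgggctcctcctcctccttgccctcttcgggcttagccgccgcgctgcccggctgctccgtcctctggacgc

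Windows were found for 9 of the 10 genes, with 11 windows in all because Rgs8 had several starts. TGACG occurred in 4 of the 11 windows (Rgs2, Rgs4, Rgs8 and Rgs7bp) and in 20.8% of all 32851 windows of 300 bases. CCAAT occurred in 7 of the 11, from 6 genes (Rgs2, Rgs4, Rgs8, Rgs9, Rgs16 and Rgs7bp), and in 37.4% of all windows. TATAAA occurred in 2 of the 11 (Rgs4 and Rgs9) and in 13.6% of all windows. The full element TGACGTCA, which contains TGACG on both strands, was in none of the 11 windows and in 1.79% of all. CACGTG was in 1 of the 11 (Rgs7) and in 7.15% of all. The windows of Rgs10 and of Rgs17, which was not called, held none of these letters. The window of Rgs10 was 76% G and C, against 73.3% at Rgs7, 71% at Rgs17, 70% at Rgs2, 66% at Rgs16 and 53% at Rgs4. Rgs9, which also fell, was at 60.3%, the windows of Rgs8 at 54.3 to 60.7%, and Rgs7bp was the lowest at 42.7%. The share of G and C over all windows was not computed. A match of letters is a description and does not show a bound site.

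Rgs2, a regulator that prefers the alpha subunit Gq and whose transcription responds to cell activity, had 269, 249.7 and 319.6 CPM in IP replicates 1 to 3, against 87.4, 76.2 and 76.6 CPM in Input replicates 1 to 3. The 2 groups were far apart, with the lowest IP library well above the highest Input library. The change was 3.49-fold (log2 fold change 1.81 ± 0.11 SE, at an adjusted p of 5.07e-06), and Rgs2 was above the highest of the 12 pan-neuronal markers (1.36). Same-numbered IP and Input libraries, which share a sequencing lane, gave log2 ratios of 1.63, 1.71 and 2.06. Across 18 alternative settings the log2 fold change of Rgs2 stayed between 1.57 and 1.91, and the call held in each.

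Rgs4, among the RGS genes best known in the brain and active on Gi, Go and Gq, had 643, 739 and 617 CPM in IP, against 397, 485 and 404 CPM in Input. The groups did not overlap, and replicate 2 was the highest library of each. The change was 1.55-fold (log2 fold change 0.64 ± 0.10 SE, at an adjusted p of 0.00100), and same-numbered libraries gave log2 ratios of 0.70, 0.61 and 0.61. Tested against a 1.5-fold change in place of any change, Rgs4 was not called (adjusted p = 0.319).

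Rgs8, a regulator of Gi and Go that is known to speed the gating of G-protein-activated potassium channels, had 692, 855 and 835 CPM in IP, against 565, 614 and 578 CPM in Input. The groups did not overlap, and IP replicate 1 was nearest to Input. The log2 fold change was 0.44 ± 0.09 (SE), at an adjusted p of 0.00399. Rgs8 was not called without replicate number 3 (adjusted p = 0.0712) or with library totals (log2 fold change 0.21, adjusted p = 0.170).

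Rgs16, a regulator of Gi and Gq that follows the daily clock in the suprachiasmatic nucleus, had 151, 190.1 and 153 CPM in IP, against 104, 129.5 and 91.7 CPM in Input. Replicate 2 was the highest library of each group. The log2 fold change was 0.60 ± 0.14 (SE), at an adjusted p of 0.00701, and same-numbered libraries gave log2 ratios of 0.54, 0.55 and 0.74. Rgs16 was not called without replicate number 3 (adjusted p = 0.0531) or with library totals (log2 fold change 0.37, adjusted p = 0.0799).

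Rgs8 and Rgs16 lie next to each other on chromosome 1 (mm10, plus strand, 153653025 to 153700323 and 153740349 to 153745468), 40.0 kb apart. Counts of Rgs16 per count of Rgs8, a ratio that needs no scaling, were 0.218, 0.222 and 0.184 in IP and 0.184, 0.211 and 0.159 in Input. These ranges overlapped (exact two-sided permutation p = 0.2, 3 against 3 libraries). Counts of Rgs2 per count of Rgs4 were 0.419, 0.338 and 0.518 in IP and 0.220, 0.157 and 0.190 in Input, a difference of 1.16 on the log2 scale (SD 0.31 in IP and 0.24 in Input, exact two-sided permutation p = 0.1). The smallest p that 3 against 3 libraries allow is 0.1, and 6 such ratios were compared. Of the 10 genes, 5 lie on chromosome 1: Rgs2 at 143999338 to 144004161 (minus strand), Rgs8, Rgs16, Rgs4 at 169741477 to 169747642 (minus strand), and Rgs7 at 175059087 to 175492500 (minus strand). Annotated exons of a non-coding gene on the other strand cover 10.1% of those of Rgs16, and the sources do not state whether strand was used in counting.

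The R7 genes and their anchor did not move as a unit. Rgs7bp rose, Rgs9 fell and Rgs7 was not called. Rgs7bp, the membrane anchor (chromosome 13, 104945904 to 105054930), had 1062, 817 and 827 CPM in IP, against 463, 535 and 485 CPM in Input. IP replicate 1 was the highest, and every IP library exceeded every Input library. The change was 1.82-fold (log2 fold change 0.87 ± 0.11 SE, at an adjusted p of 2.68e-04), and same-numbered libraries gave log2 ratios of 1.20, 0.61 and 0.77. The call held in all 18 alternative settings, in which the log2 fold change was at least 0.62.

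Rgs7, the R7 member found widely in brain neurons, had 188, 138 and 156 CPM in IP, against 147, 161 and 151 CPM in Input. The Input values fell inside the IP range. The log2 fold change was 0.07 ± 0.12 (SE), at an adjusted p of 0.650 under TMM scaling, and its sign turned under upper-quartile scaling (-0.11) and library totals (-0.17). Counts of Rgs7bp per count of Rgs7 were 5.65, 5.90 and 5.30 in IP and 3.15, 3.33 and 3.20 in Input. The ratio was thus 1.74 times as large in IP, with little spread within either group (exact two-sided permutation p = 0.1, the smallest possible).

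Rgs9, which ends the light response in photoreceptors and, as a longer isoform, is abundant in the striatum, had 17.4, 13.8 and 11.5 CPM in IP, against 25.3, 30.6 and 33.5 CPM in Input. The groups did not overlap. The log2 fold change was -1.07 ± 0.19 (SE), at an adjusted p of 0.00167, and same-numbered libraries gave log2 ratios of -0.54, -1.15 and -1.55, which differed in size. Counts per gene do not separate its isoforms. Of 10 markers of striatal neurons 9 were tested, of which 4 fell and 2 rose in IP, with a summed level of 266 to 305 CPM in IP and 239 to 249.8 CPM in Input. The dopamine receptors Drd1 (0.0200 to 0.218 CPM in IP, 1.64 to 2.45 CPM in Input) and Drd2 (2.14 to 3.12 CPM in IP, 12.2 to 15.4 CPM in Input) were among those that fell. Their part in the level of Rgs9 was not tested. Counts of Rgs7 per count of Rgs9 were 10.8, 10.04 and 13.6 in IP and 5.81, 5.26 and 4.52 in Input (exact two-sided permutation p = 0.1).

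Rgs17, the RZ member, which acts on Gz as well as on Gi and Go, had 517, 349 and 404 CPM in IP, against 356, 308 and 340.0 CPM in Input. IP replicate 2 lay below Input replicate 1, so the groups overlapped. The log2 fold change was 0.34 ± 0.13 (SE), at an adjusted p of 0.0635, and same-numbered libraries gave log2 ratios of 0.54, 0.18 and 0.25. Rgs17 was called higher with no filter on low counts (0.36, adjusted p = 0.0342). Without IP replicate 2 the log2 fold change was 0.47 (adjusted p = 0.0104), and without replicate number 2 it was 0.41 (adjusted p = 0.0483).

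Rgs10, a small regulator of Gi found in neurons and strongly in microglia (chromosome 7, 128373621 to 128418758), showed the largest fall of the set. It had 3.82, 2.79 and 4.82 CPM in IP, against 32.6, 24.0 and 30.3 CPM in Input, from 128 to 205 counts per IP library and 832 to 1584 per Input library. The level was 7.60-fold lower in IP (log2 fold change -2.93 ± 0.24 SE, at an adjusted p of 1.99e-05), and same-numbered libraries gave log2 ratios of -3.09, -3.11 and -2.65. The 10 microglial markers summed to 4.40 to 8.33 CPM in IP and 44.7 to 56.6 CPM in Input. Of these, 7 fell and 3 were not called (median log2 fold change -3.56), and none was at 0 in all IP libraries. The part of microglial RNA in the level of Rgs10 was not tested.

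Rgs14, a scaffold with RGS, Ras-binding and GoLoco domains that is known from hippocampal area CA2, was counted at few reads. It had 35, 49 and 10 counts in IP (0.700, 1.07 and 0.235 CPM), against 19, 60 and 61 counts in Input (0.744, 1.16 and 1.17 CPM). IP replicate 3 was the lowest library, and the groups overlapped. The log2 fold change was -0.61 with an SE of 0.77 (adjusted p = 0.538). Without IP replicate 3 it was -0.20. Of 10 markers of cortex and hippocampus 8 were tested, of which 2 rose, 2 fell and 4 were not called (median log2 fold change -0.25). The 10 summed to 244 to 249 CPM in IP and 252 to 301 CPM in Input. Their part in the level of Rgs14 was not tested.

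**Figure D2:**
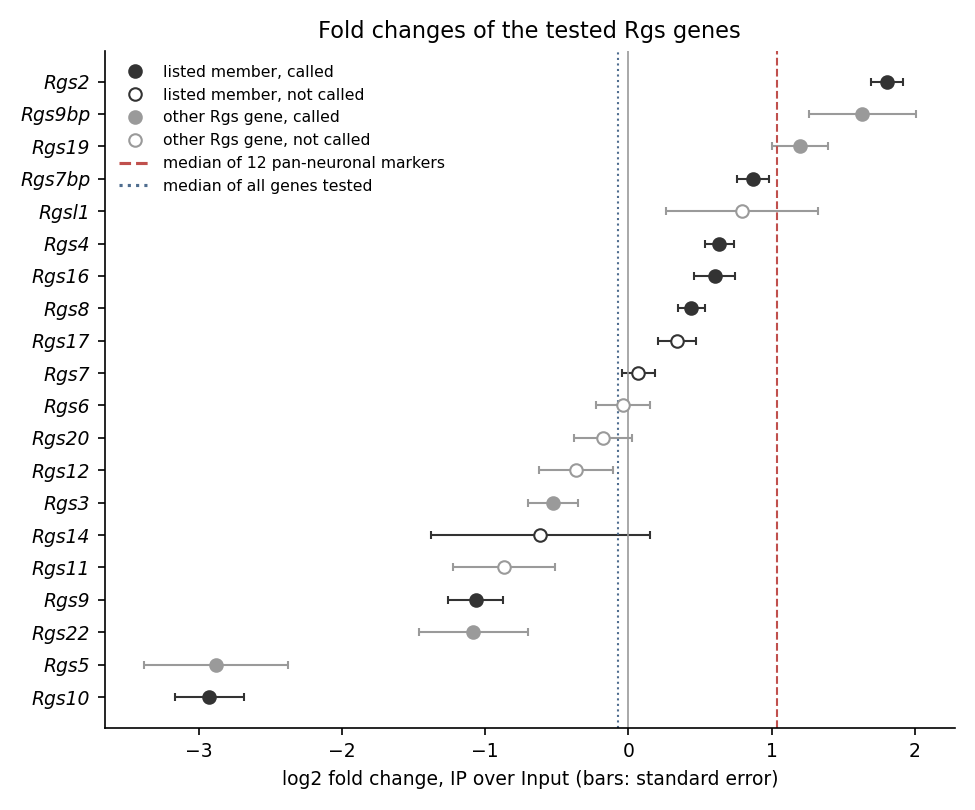
Log2 fold change of IP over Input for the 20 tested genes with Rgs symbols, with bars of 1 standard error. Black points are the 10 genes of the set and grey points the other tested Rgs genes; filled points were called at an adjusted p under 0.05, open points were not. The dashed line is the median of the 12 pan-neuronal markers (1.04), which Rgs2, Rgs9bp and Rgs19 exceed, and the dotted line the median of all genes tested (-0.07).

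Levels of different genes were compared as CPM per kilobase of annotated exons. In IP, Rgs4 was the highest at 215 ± 20.7 CPM per kilobase and Rgs7bp followed at 127 ± 19.6 (± SD, n = 3 per group). Rgs8 (82.4 ± 9.23), Rgs2 (77.1 ± 9.94) and Rgs16 (70.4 ± 9.43) came next, each with library values that overlapped those of its neighbour in this order. Rgs17 (51.0 ± 10.3) and Rgs7 (26.7 ± 4.17) followed without overlap. Rgs10 (2.23 ± 0.594) and Rgs9 (2.23 ± 0.473) could not be ordered, and Rgs14 was the lowest (0.158 ± 0.0984).

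Input kept Rgs4 (138 ± 15.8 CPM per kilobase), Rgs7bp (69.8 ± 5.26) and Rgs8 (60.7 ± 2.63) at the top, in the same order (± SD, n = 3 per group). Rgs16 (46.3 ± 8.25) and Rgs17 (40.3 ± 2.96) overlapped, and Rgs7 stood at 25.4 ± 1.17. Rgs2 stood at 22.1 ± 1.75 in Input, below Rgs7, and Rgs10 at 16.9 ± 2.59, above Rgs9 (4.66 ± 0.645) and Rgs14 (0.241 ± 0.0568). Gene lengths came from an annotation that may differ from the one used for counting. With the longest transcript as the length, Rgs10 was at 4.33 in IP and 32.9 in Input, and Rgs7 at 43.7 in IP and 41.6 in Input. That length turned 2 places of the Input order, with Rgs10 above Rgs2 (26.5) and Rgs7 above Rgs17 (40.85).

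Shares of the summed CPM per kilobase over all 24 genes with Rgs symbols do not depend on how libraries are scaled. The 10 genes made up 95.3 to 96.4% in IP and 94.7 to 95.4% in Input. Rgs4 took 31.5 ± 2.70% in IP and 30.9 ± 1.68% in Input, and Rgs16 took 10.3 ± 1.33% in IP and 10.3 ± 1.26% in Input (± SD, n = 3 per group). Rgs2 took 10.6, 9.99 and 13.4% in IP, against 5.57, 4.40 and 4.90% in Input. Rgs10 took 0.319, 0.237 and 0.427% in IP, against 4.41, 2.94 and 4.11% in Input. Rgs7 took 3.91 ± 0.564% in IP and 5.70 ± 0.122% in Input. Rgs8, whose level rose in CPM, took 10.3, 12.9 and 13.1% in IP, against 13.6, 13.3 and 13.9% in Input. In share of the family, every IP library lay above every Input library for 2 genes (Rgs2 and Rgs7bp). Every IP library lay below for 5 (Rgs7, Rgs8, Rgs9, Rgs10 and Rgs14), and the groups overlapped for 3 (Rgs4, Rgs16 and Rgs17). This count has no counterpart over all genes. Shares are parts of a whole, so the larger shares of Rgs2 and Rgs7bp lower those of other genes. Rgs7, Rgs8 and Rgs14 had smaller shares though none of them was called lower in CPM.

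**Figure D3:**
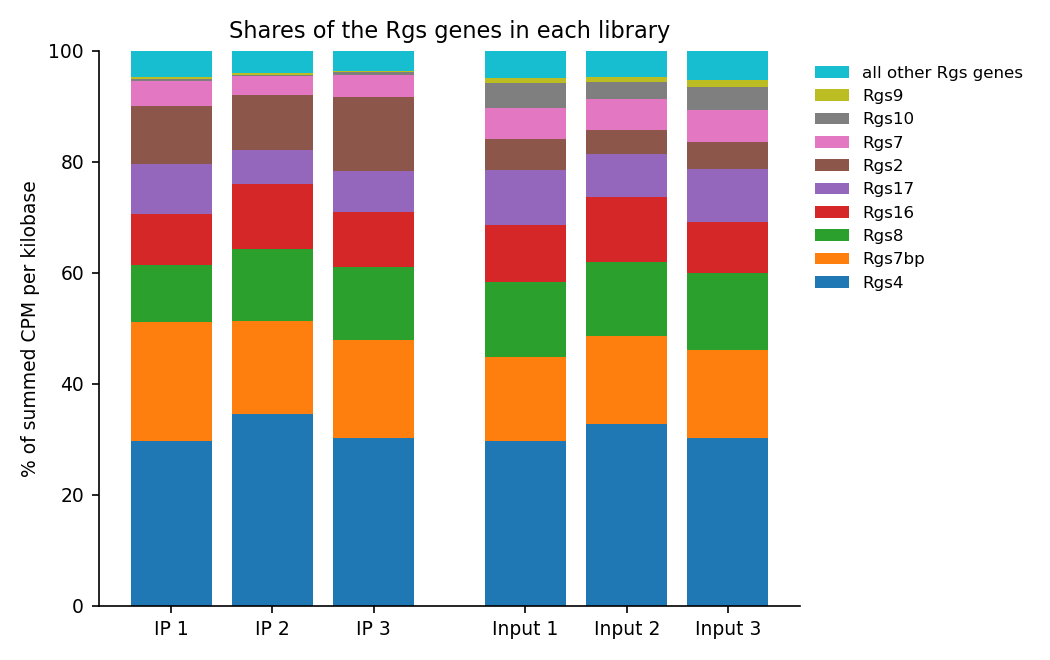
Percent of the summed CPM per kilobase of all 24 Rgs genes taken by each gene in the 3 IP libraries (left) and the 3 Input libraries (right). The brown segment (Rgs2) is 9.99 to 13.4% in IP and 4.40 to 5.57% in Input, and the grey segment (Rgs10) is below 0.5% in IP and 2.94 to 4.41% in Input.

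Of the other 14 genes with Rgs symbols, 10 were tested: 2 rose, 3 fell and 5 were not called. Rgs19, an RZ regulator of Gi, had 45.9, 39.3 and 28.2 CPM in IP, against 13.9, 17.2 and 18.1 CPM in Input (log2 fold change 1.20 ± 0.20 SE, at an adjusted p of 0.00105). Rgs9bp, the photoreceptor anchor of Rgs9, had 9.34, 5.21 and 7.74 CPM in IP, against 1.68, 2.04 and 3.41 CPM in Input (log2 fold change 1.63 ± 0.38 SE, at an adjusted p of 0.00605), and was not called once replicate number 1 was left out (adjusted p = 0.0522). Both anchors, Rgs7bp and Rgs9bp, thus rose in IP.

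Rgs5, an R4 regulator known as a marker of pericytes, had 1.30, 0.480 and 2.33 CPM in IP, against 12.1, 9.90 and 8.29 CPM in Input (log2 fold change -2.88 ± 0.50 SE, at an adjusted p of 0.00147). It lies 45.7 kb from Rgs4 on chromosome 1 and moved the other way: Rgs4 had 495, 1541 and 265 counts per count of Rgs5 in IP and 32.7, 49.0 and 48.8 in Input (exact two-sided permutation p = 0.1). The 10 mural cell markers summed to 10.5 to 12.4 CPM in IP and 27.2 to 36.9 CPM in Input. Of them 5 fell, 1 rose and 4 were not called, and none was at 0 in all IP libraries. The 1 that rose, Pdgfrb, had 6.66, 6.89 and 7.86 CPM in IP, against 4.07, 3.85 and 2.97 CPM in Input. Its log2 fold change was 0.98 (adjusted p = 0.0147). The part of mural cell RNA in the level of Rgs5 was not tested. Without IP replicate 3, the highest of its group, the log2 fold change of Rgs5 was -3.48.

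Rgs3, a larger R4 protein, averaged 13.7 ± 2.46 CPM in the IP libraries and 19.7 ± 0.223 CPM in the Input libraries (± SD, n = 3 per group), and was called lower (log2 fold change -0.53, adjusted p = 0.0325). Rgs22 had 2.09 ± 0.597 CPM in IP and 4.43 ± 0.335 CPM in Input, and was also called lower (-1.08, adjusted p = 0.0410). Rgs3 lost its call when any 1 replicate number, or any 1 library except IP replicate 3, was left out, and Rgs22 when any 1 replicate number, IP replicate 2 or any 1 Input library was (adjusted p 0.0536 to 0.212). The other R7 genes, Rgs6 (log2 fold change -0.04) and Rgs11 (-0.87), the RZ gene Rgs20 (-0.18), the R12 gene Rgs12 (-0.36) and Rgsl1 (0.79) were not called. Rgs11 was called lower in 5 alternatives: without IP replicate 1 (-1.11, adjusted p = 0.0254), with library totals (-1.12, 0.0267), with limma-voom (-0.97, 0.0326), with DESeq2 (-0.91, 0.0342) and with upper-quartile scaling (-1.04, 0.0393). Rgs1, Rgs13, Rgs18 and Rgs21 had 0 counts in all IP libraries and at most 3 in any Input library, so they were not tested.

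Genes that work with the RGS proteins were read from lists chosen by role. Gnb5, the beta subunit that R7 proteins need for stability, had 202, 177 and 217 CPM in IP, against 111, 104 and 98.2 CPM in Input (log2 fold change 0.93 ± 0.10 SE, at an adjusted p of 9.41e-05). Gpr158, an orphan receptor that binds Rgs7, had 188, 139 and 137 CPM in IP, against 107, 107 and 111 CPM in Input (log2 fold change 0.51 ± 0.13 SE, at an adjusted p of 0.00910). Gpr158 was not called under upper-quartile scaling (adjusted p = 0.0618) or library totals (0.0806). The third gene of that list, Gpr179, was not called.

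Of 13 alpha subunits, listed without regard to which RGS proteins act on them, 6 rose, 3 fell and 4 were not called (median log2 fold change 0.11). The largest rises above a mean of 5 CPM were in Gnal, which couples receptors to adenylyl cyclase (2098 ± 206 CPM in IP, 746 ± 33.9 CPM in Input), Gnas, its close relative (3904 ± 191 and 1755 ± 38.8 CPM), and Gnaz, the substrate of the RZ group (134 ± 7.20 and 68.8 ± 1.07 CPM), with n = 3 each. Gnao1, the most abundant Gi/o subunit of brain and a substrate of R4 and R7 proteins, had a log2 fold change of 0.73 ± 0.09 (SE), at an adjusted p of 2.38e-04. Gnaq, the substrate of Rgs2, had 344 ± 25.7 CPM in IP and 319 ± 16.7 CPM in Input (n = 3 each), which did not pass the test (0.11, adjusted p = 0.302), and its sign turned under upper-quartile scaling (-0.06) and library totals (-0.13). Gna12 (-1.70) and Gna13 (-1.57) fell, and the third that fell, Gna14, was listed at 0 in all IP libraries.

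Among 15 effectors, 4 rose, 2 fell and 9 were not called (median 0.13). The potassium channel subunits Kcnj5 (log2 fold change 1.70, SE 0.16) and Kcnj3 (0.75, SE 0.18) and the adenylyl cyclase Adcy2 (1.14, SE 0.19) had the largest rises above a mean of 5 CPM. Kcnj5 had 40.8, 45.7 and 54.7 CPM in IP, against 13.0, 14.0 and 16.3 CPM in Input. None of the effectors that fell reached that level.

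Of 27 receptors tested, 12 rose, 9 fell and 6 were not called (median log2 fold change 0.22). Grm8, a glutamate receptor coupled to Gi (1.33, SE 0.20), and the muscarinic receptors Chrm1 (1.32, SE 0.30) and Chrm3 (1.17, SE 0.33), both coupled to Gq, had the largest rises above a mean of 5 CPM. The cannabinoid receptor Cnr1 (-2.73, SE 0.36), the serotonin receptor Htr1a (-2.44, SE 0.81) and Drd2 (-2.39, SE 0.24) had the largest falls above that level. The choice of IP libraries moved the value of Htr1a, which was -3.72 without IP replicate 2, past Cnr1 at -2.64 in the same fit, and -1.88 without IP replicate 3. Chrm3 lost its call with library totals (adjusted p = 0.0541) and when replicate number 2, or Input replicate 1 or 2, was left out (adjusted p between 0.0619 and 0.166). Htr1a lost it under DESeq2 (adjusted p = 0.0510) and without IP replicate 1, replicate number 1 or any 1 Input library (adjusted p 0.0582 to 0.178).

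Of 19 further proteins with RGS-homology or GoLoco domains, 7 rose, 3 fell and 9 were not called (median log2 fold change -0.01). The Wnt scaffold Axin2 (1.49, SE 0.10) and the receptor kinases Adrbk1 (1.03, SE 0.11) and Grk6 (0.82, SE 0.16) rose. Axin2 had 132, 149 and 151 CPM in IP, against 54.7, 47.6 and 52.0 CPM in Input. Gpsm1, a GoLoco protein that binds Gi (-1.33, SE 0.23), and Axin1 (-0.82, SE 0.29) fell, and the third gene that fell, Gpsm3, was below a mean of 5 CPM. Axin1 lost its call without replicate number 1 or 3, IP replicate 3 or any 1 Input library (adjusted p 0.0532 to 0.181).

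**Figure D4:**
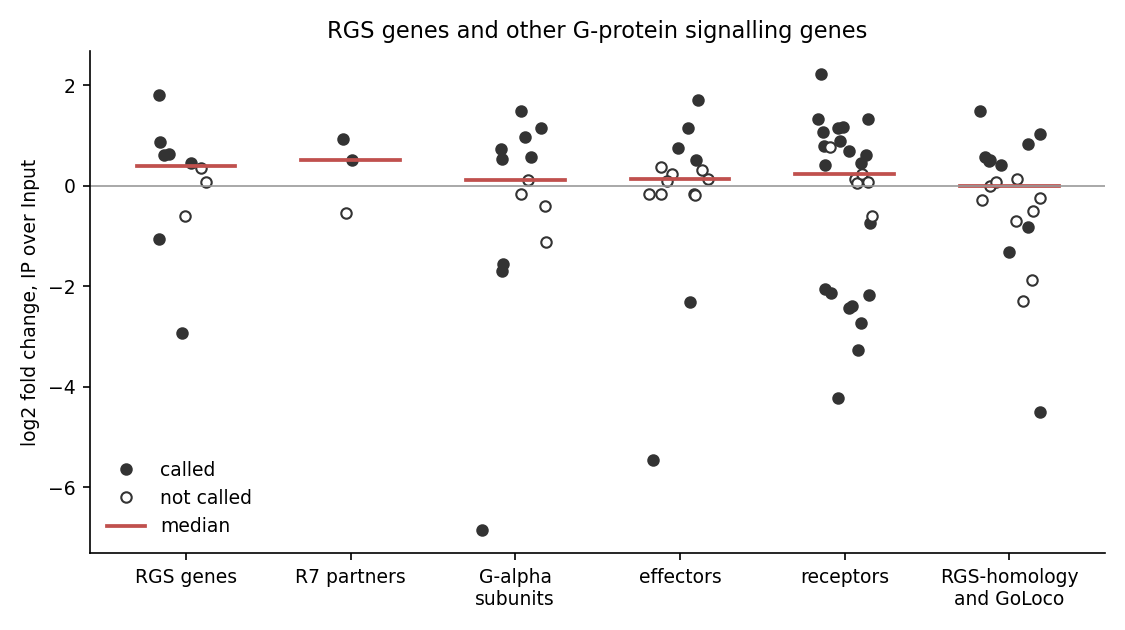
Log2 fold change of IP over Input for the tested genes of each list, 1 point per gene, spread sideways at random. Filled points were called, open points were not, and red lines are medians: 0.39 for the RGS genes, 0.51 for the R7 partners, 0.11 for the alpha subunits, 0.13 for the effectors, 0.22 for the receptors and -0.01 for the RGS-homology and GoLoco genes.

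**Figure D5:**
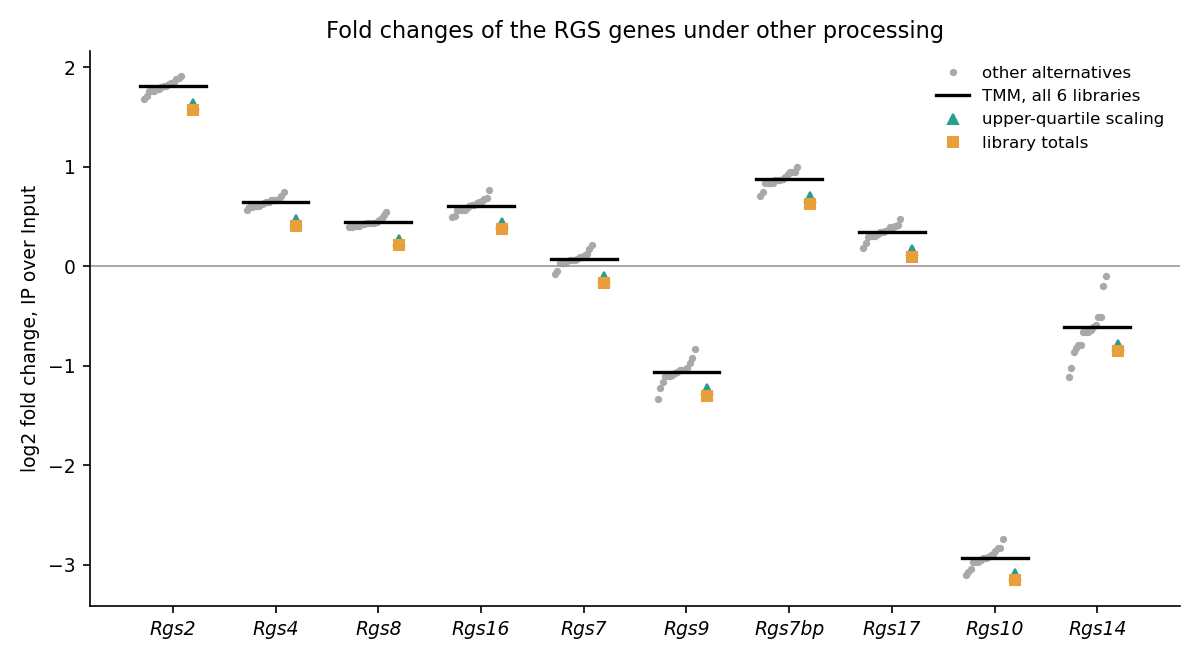
Log2 fold change of IP over Input for the RGS genes under TMM scaling of all 6 libraries (black line) and 18 alternatives (points). Triangles (upper-quartile scaling) and squares (library totals) lie lowest for the R4 genes, and take Rgs7 below 0 (-0.11 and -0.17); Rgs2 stays between 1.57 and 1.91 and Rgs10 between -3.16 and -2.74.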

How the data were processed

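Each library came as 1 deposited table of raw, unnormalised counts by gene symbol, from reads aligned with STAR 2.0.0e to mm10 and counted with HTSeq, per the submitters' processing notes. Which HTSeq version, strand setting and annotation applied is not given in the sources used here. Reads that HTSeq tied to no gene were kept out of the fit. Those without a unique alignment were 45.9 ± 3.39% of an IP library and 33.3 ± 0.687% of an Input library (mean ± SD, n = 3 per group), those outside features 8.87 ± 0.478% and 15.4 ± 0.591%, and ambiguous ones 1.48 ± 0.140% and 5.89 ± 0.622%.

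Groups and replicate numbers came from the titles. Genes kept by filterByExpr (minimum count 10) entered edgeR 4.0.16 under R 4.3.3 (TMM, robust quasi-likelihood F-test, group as the only term), with Benjamini-Hochberg adjustment over all genes tested. Standard errors (SE) were derived from the F statistic, and CPM are TMM-scaled. The test was checked on simulated counts with the same spread per gene in both groups and few changed genes. Here the IP libraries differed more from each other than the Input libraries did, and many genes were called. The check does not cover those conditions. Alternatives used upper-quartile, library-total or DESeq2 1.42.0 scaling, no filter or 1 CPM in 3 libraries, DESeq2, limma 3.58.1 (voom), the replicate number as a block, a test against 1.5-fold, the longest transcript as gene length, and each library or replicate number left out. Lengths and positions came from GENCODE M21 and promoter windows from RefSeq, both on GRCm38. The named genes were all RGS genes, every other tested Rgs gene, and for each further list the 3 largest called rises and falls with a mean of at least 5 CPM, plus Gnb5, Gpr158, Gnao1, Gnaq and Gnal. Gna14, Gpsm3, Gpr179 and Pdgfrb were named after their values were seen. Drd1, Cldn5 and Cdh5 were named from the marker lists, Cldn5 and Cdh5 as the endothelial markers at 0 in all IP libraries. Members and lists were chosen with earlier results of these data known.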

Additional observations from a re-analysis of the deposited data

How the results depend on the processing

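Rgs2, Rgs7bp, Rgs9 and Rgs10 kept their calls and directions in all 18 alternatives. With library totals 2458 genes were higher (3930 under TMM), and 3 RGS genes were higher (Rgs2, Rgs4 and Rgs7bp). Tested against a 1.5-fold change, which asks for a larger effect by construction, 4184 genes were called in all, 1484 higher and 2700 lower, and 2 RGS genes were higher (Rgs2 and Rgs7bp). With 1 library or 1 replicate number left out, 5823 to 9458 genes were called, 2659 to 4392 higher and 3017 to 5066 lower; 3 to 6 RGS genes were higher and 2 were lower in every such fit. The lowest of these counts of higher RGS genes came without replicate number 3, and the highest, with Rgs17 added, without IP replicate 2 or replicate number 2. Signs turned for genes that were not called. Upper-quartile scaling gave -0.11 for Rgs7 and -0.06 for Gnaq, and library totals gave -0.17 and -0.13. With 1 library or replicate number left out, log2 fold changes ran from -0.08 to 0.21 for Rgs7, from -0.29 to 0.17 for Rgs6 and from -0.36 to 0.01 for Rgs20. The cause was not tested. Same-numbered libraries deviated together only weakly (r = 0.06, 0.04 and 0.01), so the numbers were not taken as pairs. Each library correlated best with its own number, except IP replicate 3 (0.02 with Input replicate 2). With the replicate number as a block, 7831 genes were called, 6 RGS genes were higher, with Rgs17 (0.32, adjusted p = 0.0162) as the sixth, and 2 were lower; Rgs22 was then not called (adjusted p = 0.0802). Rgs14 had the lowest counts of the set, 10 to 61 per library, and its log2 fold change ran from -1.12 to -0.10 over the same fits with libraries left out.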
